A study of Homo sapiens with 4 samples.

Results

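Chromosomes 2, 3, 6, 11 and 13 hold few S100A10 ChIP-seq peaks for their length. They were chosen by the number of peak intervals per Mb in these same lists, which was low in both cell lines, so that density is given as a description only. Every line of the peak lists of HCT116 and LoVo on these 5 chromosomes was taken, except for 1 summit per list on chromosome 3 near the gene ZNF717, and lines with the same start and end were merged into 1 interval. This left 462 of the 4148 intervals of HCT116 and 82 of the 1380 intervals of LoVo. In HCT116, the summit left out lies at position 75669244 and had 225 ChIP tags and a −log10 q of 161, and the first one kept beyond it, at 75680025, had 8 tags and a −log10 q of 0. In LoVo, the summit left out at 75669242 had 296 tags, and the nearest one kept, at 75630968, had 8.

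HCT116 and LoVo are established human colorectal cancer cell lines. Per the labels, both were treated with CoCl2 at 535.5 μM for 48 h and yielded polyploid giant cancer cells (PGCCs) with daughter cells, and the concentration given in the study's methods differs from this. For each cell line there was 1 library of chromatin recovered with an S100A10 antibody and 1 library of input DNA, 4 libraries in all, each from treated cells, so the data hold neither untreated cells nor a replicate. The ChIP libraries held 16561424 filtered tags in HCT116 and 19762814 in LoVo, and the inputs 14962190 and 12925105. Values can therefore be given with counting error at most, no test was made, and a difference between the 2 cell lines compares 4 libraries.

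S100A10 is an EF-hand protein that forms a complex with annexin A2 and is best known at the cell membrane, where the complex takes part in plasminogen activation. A ChIP-seq peak is a place where tags of the antibody library pile up above a background estimated from the input library. Such a peak may reflect binding through other chromatin proteins as well as direct contact. Centromeres and the sequence beside them are built of long arrays of satellite repeats with few genes, chromosome ends carry families of duplicated sequence, and most of the arms between them is unique sequence with genes.

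The sequences shown first are the promoters with a peak, since these are the places where an interval meets a gene start. Of the 9785 promoter windows of the 5 chromosomes, each from 250 bp before to 50 bp after a start, 7 overlapped an interval of HCT116 (0.0715%), against 0.194% of all 35116 windows, and 1 overlapped an interval of LoVo (0.0102%), against 0.0142%. The 7 windows belonged to TWF2, its divergent transcript TWF2-DT, SLC22A7, LOC101060553, LINC01215, TNF and DUSP8, and the window of LoVo to PARD3B. TWF2 encodes twinfilin 2, which binds actin monomers and caps filaments. SLC22A7 is an organic anion transporter, TNF the cytokine tumour necrosis factor, DUSP8 a phosphatase of MAP kinases, and PARD3B a polarity protein of cell junctions. The windows of these 5 protein-coding genes, from RefSeq on GRCh38.p14, lie at chr3:52239109-52239408 (TWF2, minus strand), chr6:43298010-43298309 (SLC22A7, plus strand), chr6:31575315-31575614 (TNF, plus strand), chr11:1572222-1572521 (DUSP8, minus strand) and chr2:204545225-204545524 (PARD3B, plus strand). They are written 5′ to 3′ along the gene, with the bases that lie inside the peak interval in capitals.
TWF2: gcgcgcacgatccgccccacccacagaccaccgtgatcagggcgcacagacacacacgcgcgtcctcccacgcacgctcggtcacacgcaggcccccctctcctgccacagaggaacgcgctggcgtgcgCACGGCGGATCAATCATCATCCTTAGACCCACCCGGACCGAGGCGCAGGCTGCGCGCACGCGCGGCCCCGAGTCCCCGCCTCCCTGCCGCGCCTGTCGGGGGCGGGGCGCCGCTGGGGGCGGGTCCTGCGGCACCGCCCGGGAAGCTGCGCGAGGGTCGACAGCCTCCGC
SLC22A7: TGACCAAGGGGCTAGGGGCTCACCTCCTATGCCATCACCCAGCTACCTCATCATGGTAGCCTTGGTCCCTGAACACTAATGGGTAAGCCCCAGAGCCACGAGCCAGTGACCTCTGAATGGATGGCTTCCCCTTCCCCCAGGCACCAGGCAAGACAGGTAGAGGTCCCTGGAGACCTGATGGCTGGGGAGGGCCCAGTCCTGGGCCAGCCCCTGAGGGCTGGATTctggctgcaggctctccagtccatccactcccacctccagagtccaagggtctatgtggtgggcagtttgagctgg
TNF: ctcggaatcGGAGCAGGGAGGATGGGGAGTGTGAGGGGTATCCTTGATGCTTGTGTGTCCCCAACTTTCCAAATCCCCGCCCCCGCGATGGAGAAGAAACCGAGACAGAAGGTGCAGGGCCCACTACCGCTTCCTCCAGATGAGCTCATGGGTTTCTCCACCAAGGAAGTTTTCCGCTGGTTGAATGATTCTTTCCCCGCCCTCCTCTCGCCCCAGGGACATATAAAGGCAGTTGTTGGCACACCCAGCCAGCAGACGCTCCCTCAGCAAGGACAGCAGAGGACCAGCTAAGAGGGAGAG
DUSP8: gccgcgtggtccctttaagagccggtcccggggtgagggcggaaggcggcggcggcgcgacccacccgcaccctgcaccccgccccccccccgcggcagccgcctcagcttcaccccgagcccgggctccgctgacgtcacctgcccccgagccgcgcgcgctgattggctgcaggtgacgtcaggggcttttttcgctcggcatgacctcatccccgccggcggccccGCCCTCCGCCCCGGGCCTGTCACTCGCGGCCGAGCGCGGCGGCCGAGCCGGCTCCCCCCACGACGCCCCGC
PARD3B: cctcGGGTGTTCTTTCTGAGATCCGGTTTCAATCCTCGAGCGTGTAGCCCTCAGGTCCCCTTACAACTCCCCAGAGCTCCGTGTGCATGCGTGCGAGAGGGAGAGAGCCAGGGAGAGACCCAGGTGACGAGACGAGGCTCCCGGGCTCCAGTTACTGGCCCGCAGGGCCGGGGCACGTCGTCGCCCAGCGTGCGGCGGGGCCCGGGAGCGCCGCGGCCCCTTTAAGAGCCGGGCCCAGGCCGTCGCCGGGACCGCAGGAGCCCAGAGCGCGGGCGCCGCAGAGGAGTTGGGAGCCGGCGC

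The interval at TWF2 had 10 tags at a summit 32 bp inside the gene, a pileup of 9.03 over a local background of 1.48, an enrichment of 4.04-fold and a −log10 q of 1.52. It also covered most of the TWF2-DT window, whose start lies 80 bp away on the other strand, so that 1 interval accounts for both windows. The interval at SLC22A7 had 9 tags, a fold of 4.05 and a −log10 q of 1.27. Its summit lay at -122 from the start used for its window. That start is inside the annotated gene body, 43295714 to 43305538, and so is the summit. The interval at TNF had 7 tags and a summit at -208, and that at DUSP8 had 6 tags, with −log10 q values of 0.015 and 0. The DUSP8 summit lay 152 bp downstream of the start used for its window. That start is inside the annotated gene body, 1554051 to 1572848. In LoVo, the interval at PARD3B had 10 tags with the summit at -28, a fold of 3.21 and a −log10 q of 0. Of these 5 intervals, that of TWF2 reached a q of 0.05, as 29.3% of all HCT116 summits did. The interval beside LOC101060553 had 11 tags and began 122 bp inside a start of ARHGEF7, a Rac and Cdc42 exchange factor also known as beta-PIX.

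The 8 windows had a GC content from 52.7% (LINC01215) to 78.3% (DUSP8), while the median window of the 5 chromosomes had 57%. Short motifs were searched on both strands. The windows of TWF2 and TWF2-DT share 179 bp, so the 8 windows are not separate sequences. The GC box GGGCGG was found in 4 of the 8 windows, TWF2 and TWF2-DT among them, and in 45.0% of all windows, CCAAT in 3 and in 34.6%, the AP-1 motif TGANTCA in 1 and in 7.71%, and the TATA box TATAAA, at TNF, in 1 and in 11.5%. The hypoxia element core ACGTG, which is contained in the E-box CACGTG, was found in the PARD3B window and in 21.4% of all windows, and CACGTG in 0 of 8 and in 7.26%. A match describes the letters of a window only. In HCT116, 20 of the 462 intervals (4.33%) lay within 1 kb of an annotated start, and in LoVo 3 of the 82 (3.66%), where 1.82% of the sequence lies this close. In the whole lists the shares were 4.11% and 1.87%. The median distance to the nearest start was 35.4 kb in HCT116 and 39.5 kb in LoVo.

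The 5 chromosomes hold 27.9% of the assembled sequence, measured from the start of a chromosome to its last annotated gene, but 13.3% of the assembled intervals of HCT116 and 8.09% of those of LoVo. In HCT116 there were 0.537 intervals per Mb (95% exact Poisson interval 0.489 to 0.588) and on the other 19 chromosomes 1.36 (1.31 to 1.41), a ratio of 0.396. In LoVo there were 0.0953 (0.0758 to 0.118) and 0.418 (0.392 to 0.446), a ratio of 0.228. These intervals cover counting error only. Expressed per 1000 annotated genes, the ratios were 0.430 and 0.247.

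Within the 5, chromosome 13 was the sparsest in both cell lines, with 39 intervals in HCT116 (0.341 per Mb) and 2 in LoVo (0.0175). The assembly is known to lack the sequence of much of its short arm, and without its stretch that lacks annotated genes the values were 0.404 and 0.0207. Chromosome 6 followed in HCT116 with 69 intervals (0.404), while in LoVo its 20 intervals gave 0.117 per Mb, the highest of the 5. Chromosome 11 was the reverse, with 92 intervals and the highest density of the 5 in HCT116 (0.681) and 9 intervals in LoVo (0.0666). Chromosome 2 had 140 and 28 intervals and chromosome 3 had 122 and 23, with 0.578 and 0.615 per Mb in HCT116 and 0.116 per Mb on both in LoVo. The counting intervals of chromosomes 2, 3 and 6 overlapped in LoVo, and those of chromosomes 2, 3 and 11 overlapped in HCT116. The choice of 5 has no sharp edge. In HCT116, chromosomes 12 (0.450), 5 (0.590) and 18 (0.660) lay among them, and in LoVo chromosome 14 (0.0655) was below 4 of them and chromosome 8 (0.152) came next above. Chromosome X, with 2 intervals in HCT116 and 1 in LoVo, was below all of them.

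**Figure D1:**
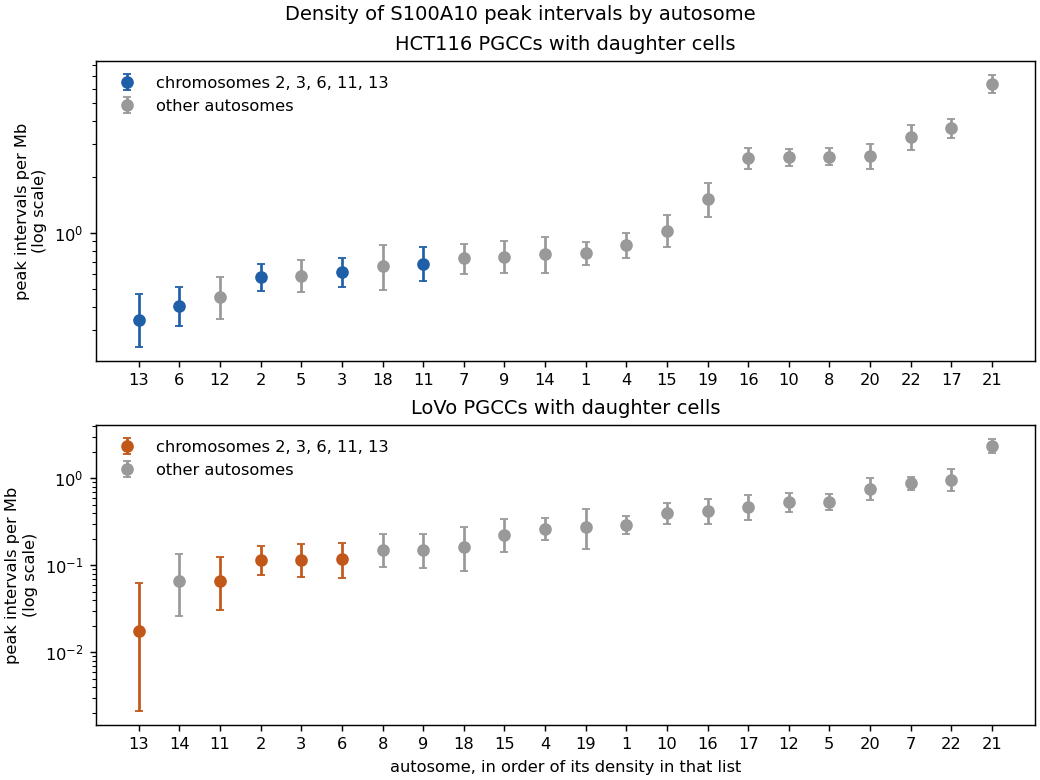
Peak intervals per Mb of each autosome (log scale) in HCT116 and in LoVo, in order of density, with 95% exact Poisson intervals that cover counting error only. Chromosomes 2, 3, 6, 11 and 13 are coloured, and 13 is lowest in both cell lines.

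Most of these peaks were small. A HCT116 summit had a median of 8 ChIP tags, a scaled pileup of 7.23, a local background of 1.26 input tags and a fold enrichment of 3.25. A count of 8 tags has a 95% Poisson interval of 3.45 to 15.8. The smallest number of tags in the list was 6, and 317 of the 462 intervals (68.6%) had at most 8 at their best summit. In LoVo the smallest number was 8, and the medians were 14 tags, a pileup of 9.16, a background of 1.45 and a fold of 3.17. The local background, computed here from the deposited pileup and fold, was within 0.01 of the genome mean of the input in 283 of 473 HCT116 summits (59.8%, against 51.7% in the whole list) and in 21 of 88 LoVo summits (23.9%, against 15.1%). The lowest background of each whole list, 1.254 in HCT116 and 1.171 in LoVo, was also close to this mean, 1.255 and 1.172. At these summits the pileup was thus set against a genome-wide value of the input.

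A q of at most 0.05 was reached by 77 of the 473 HCT116 summits (16.3%, exact binomial interval 13.1 to 19.9%), against 29.3% of the whole list. In LoVo it was reached by 24 of 88 (27.3%, 18.3 to 37.8%), against 33.4%. A fold enrichment of at least 5 was found at 26 HCT116 summits (5.50%, against 12.2%) and at 9 LoVo summits (10.2%, against 5.88%). The share at q 0.05 was thus below the whole list in HCT116, while in LoVo the interval for these chromosomes contained the share of the whole list. A −log10 q of 0 was listed for 135 HCT116 summits (28.5%, against 21.5% of the whole list) and 41 LoVo summits (46.6%, the same as the 46.6% of the whole list). Chromosome 2 held 42 of the 77 HCT116 summits at q 0.05, and chromosome 6 held 11 of the 24 LoVo summits.

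**Figure D2:**
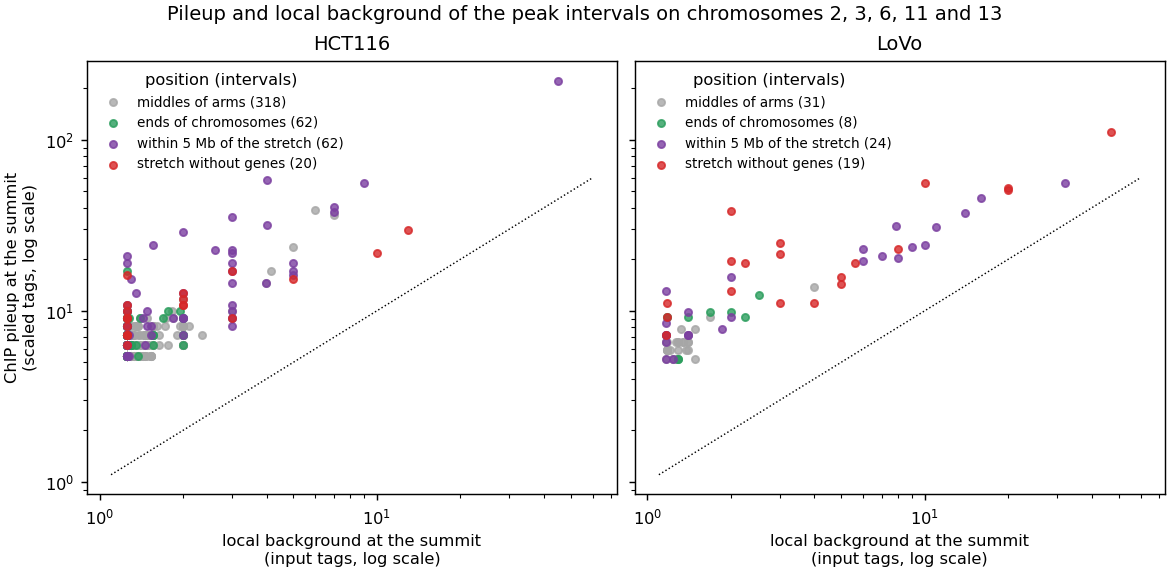
Scaled ChIP pileup against local input background at the best summit of each interval (log scales; the dotted line marks equal values), with each point 1 interval coloured by its place on the chromosome. Most intervals in the middles of arms sit at the lower left, and those with a background above 10 lie in or beside the stretches without genes.

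To compare places along a chromosome, the widest stretch without an annotated gene was taken as a stand-in for the centromere, since the files hold no centromere positions. The density was then counted in this stretch, in the 5 Mb on each side of it, in the 5 Mb at the ends of the chromosome and in the remaining middles of the arms. The stretch was 2.16 Mb long on chromosome 2, 2.33 Mb on chromosome 3, 2.16 Mb on chromosome 6 and 4.17 Mb on chromosome 11. On chromosome 13 it was 17.8 Mb and held 0 intervals in both lists. How much of it is sequenced was not measured here.

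In HCT116, the middles held 318 intervals, 0.429 per Mb (0.383 to 0.479). The ends held 62 intervals, 1.38 per Mb (1.06 to 1.77), or 3.21 times as many, and the 5 Mb beside the stretch held 62 as well, 1.37 per Mb (1.05 to 1.75). Of these, 37 were on chromosome 2, and without 2 runs of intervals there, described further on, the sides had 0.816 per Mb. On chromosomes 6 and 11 the sides had 0.3 and 0.6 per Mb and the middles 0.296 and 0.604. The HCT116 stretch itself held 20, 0.700 per Mb (0.427 to 1.08), or 1.85 per Mb (1.13 to 2.86) without chromosome 13, where the 5 Mb on its sides had 1.43. Without chromosomes 6 and 13, the HCT116 stretch had 1.73 per Mb (0.970 to 2.86) and its sides 1.80 (1.35 to 2.35). Of those 54 side intervals, 25 lay in the 2 runs of chromosome 2. In LoVo, the middles held 31 intervals, 0.0418 per Mb (0.0284 to 0.0593), the ends 8 (0.178 per Mb, 0.0768 to 0.350), the 5 Mb beside the stretch 24 (0.529) and the stretch 19 (0.665). Without the 2 runs of chromosome 2, the 5 Mb beside the LoVo stretch held 14 intervals, 0.309 per Mb. Without chromosome 13, the LoVo stretch had 1.76 per Mb (1.06 to 2.74) and its sides 0.550. Of the 19 LoVo intervals in the stretch, 16 were on chromosome 6, and without chromosomes 6 and 13 the order turned, with 3 intervals in the stretch (0.346 per Mb) and 21 at its sides (0.700). Of these 21, 10 lay in the 2 runs of chromosome 2. The 8 LoVo intervals at the ends were 4 on chromosome 3 and 4 on chromosome 11. Stretch and sides together held 82 of 462 intervals in HCT116 (17.7%) and 43 of 82 in LoVo (52.4%). Their density was 1.11 per Mb in HCT116 and 0.582 in LoVo, 2.59 and 13.9 times that of the middles. On the other autosomes the corresponding ratios were 3.03 and 8.41, and the ends were at 2.19 and 5.51 times the middles. The middles of the 5 chromosomes were below those of the other autosomes, which had 1.06 intervals per Mb in HCT116 and 0.181 in LoVo. As the middles make up most of the length by which the chromosomes were chosen, this restates the choice.

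**Figure D3:**
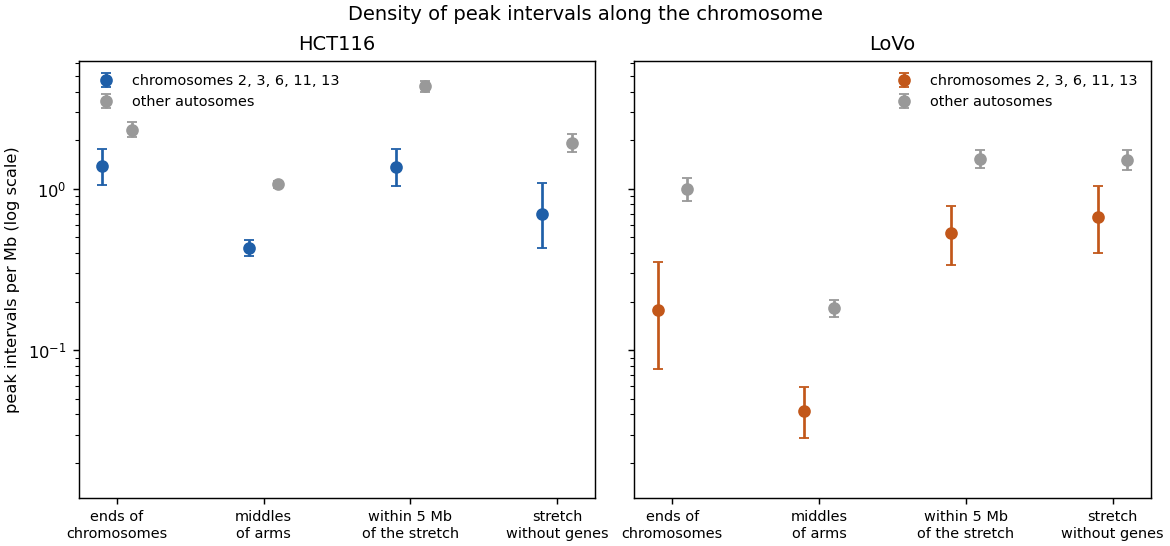
Intervals per Mb (log scale) at the ends of chromosomes, in the middles of arms, within 5 Mb of the stretch without genes and in that stretch, for chromosomes 2, 3, 6, 11 and 13 and for the other autosomes, with 95% exact Poisson intervals. The middles are lowest in all 4 series, at 0.429 in HCT116 and 0.0418 in LoVo for the 5 chromosomes, whose stretches include the 17.8 Mb of chromosome 13.

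More summits in or beside the stretch than elsewhere reached a q of 0.05, and they had more tags. In HCT116, 43 of the 91 summits in or beside the stretch had a q of at most 0.05 (47.3%), with medians of 11 tags and a background of 1.56, while 34 of the 382 elsewhere did (8.90%), with medians of 7 tags and a background of 1.26. In LoVo the shares were 21 of 48 (43.8%), with medians of 29 tags and a background of 4.50, and 3 of 40 (7.5%), with medians of 10 tags and a background of 1.29. The median fold did not go the same way in both lists, at 3.86 in or beside the stretch and 3.25 elsewhere in HCT116, and at 3.02 and 3.19 in LoVo. Counted by interval, 35 of 82 in or beside the stretch reached q 0.05 in HCT116 (42.7%), and 14 of 57 (24.6%) without the 2 runs of chromosome 2, while in LoVo it was 20 of 43 (46.5%) and 15 of 33 (45.5%). Higher input background and higher ChIP pileup thus went together near the stretches, and the part of the background in the peak density was not tested. At the ends, 8 of 63 HCT116 summits reached q 0.05 (12.7%) and no summit had a background of 2 times the genome mean or more, while in LoVo 2 of 8 reached q 0.05 (25%) and 1 had such a background.

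The chromosomes differed in where their intervals lay. On chromosome 2, 46 of 140 HCT116 intervals and 17 of 28 LoVo intervals were in or beside the stretch. On chromosome 6 the lists diverged. LoVo had 16 of its 20 intervals in the stretch itself (7.41 per Mb, 4.23 to 12.03), 1 beside it, 3 in the middles and 0 at the ends, which allows up to 0.3 per Mb there. HCT116 had 5 in the stretch (2.31 per Mb), 3 beside it and 17 at the ends (1.70 per Mb, 0.990 to 2.72). On chromosome 11, LoVo had 0 intervals in or beside the stretch, which allows up to 0.212 per Mb, and HCT116 had 10 (0.706 per Mb), close to its 0.604 in the middles. On chromosome 13, both LoVo intervals lay within 5 Mb of the stretch, and 0 in the 86.2 Mb of the middle, which allows up to 0.0348 per Mb, where HCT116 had 26 (0.302 per Mb).

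The 5 highest LoVo summits all lay in the stretch of chromosome 6. The first, at position 58450727, had 59 tags over a background of 2.0, a fold of 13.2 and a −log10 q of 28.8, and was the 5th highest summit of the whole LoVo list. The nearest annotated gene, the pseudogene RBBP4P4, was 329.6 kb away, and the nearest HCT116 interval 130.8 kb. The next summits, at 58886649 and 59163231, had 85 and 169 tags, but over backgrounds of 10 and 47.0, which gave folds of 5.14 and 2.32. Those at 59566306 and 59484601 had 38 and 30 tags over backgrounds of 3.0 and 2.0, and folds of 6.46 and 6.87. The 16 intervals of this stretch ranged from 14 to 169 tags, from 1.17 to 47.0 in background and from 2.32 to 13.2 in fold, and 11 of them reached q 0.05. The interval with the most tags had the lowest fold, and that with the highest fold had 59 tags. The 5 HCT116 intervals there ranged from 10 to 33 tags and from 2.06 to 4.45 in fold, and 1 reached q 0.05.

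The highest HCT116 summit lay on chromosome 13 at 18212030, in the lncRNA gene FAM230C, beside the stretch. It had 245 tags, with a pileup of 221 over a background of 45.0, so that the fold was 4.83 at a −log10 q of 72.9. It was the 33rd of the whole HCT116 list. The other 38 HCT116 intervals of the chromosome lay further along it, and the next, at 19187004 to 19187283, had 8 tags. Both LoVo intervals of chromosome 13 lay near FAM230C, at 18234337 to 18234698 and at 18258486 to 18258766, the nearer one 21.8 kb from the HCT116 interval. They had 10 and 11 tags and a −log10 q of 0.

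The next HCT116 summits lay on chromosome 2. Those at 89831017 and 89833320 are in IGK, the immunoglobulin kappa locus, which is rearranged in B cells. They had 64 and 62 tags, folds of 11.8 and 5.70 and −log10 q values of 40.1 and 21.3. Those at 90397673 and 90388237 lay between genes, 36.5 and 27.1 kb from LOC124905368, with 39 and 32 tags and folds of 9.06 and 9.97.

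Neighbouring intervals were a median of 831 kb apart in HCT116 and 767 kb in LoVo, although LoVo had 82 intervals and HCT116 462. The LoVo gaps were more uneven, with quartiles of 72.9 and 11823 kb against 233 and 2187 kb in HCT116. The longest gap between neighbours was 24.8 Mb in HCT116, on chromosome 2, and 84.6 Mb in LoVo, on chromosome 6. Beyond the last LoVo interval of chromosome 13, 96.1 Mb were empty up to the last annotated gene. Gaps under 10 kb numbered 37 of 457 in HCT116 (8.10%) and 12 of 77 in LoVo (15.6%), and on chromosome 2 they were 25 of 139 and 9 of 27.

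**Figure D4:**
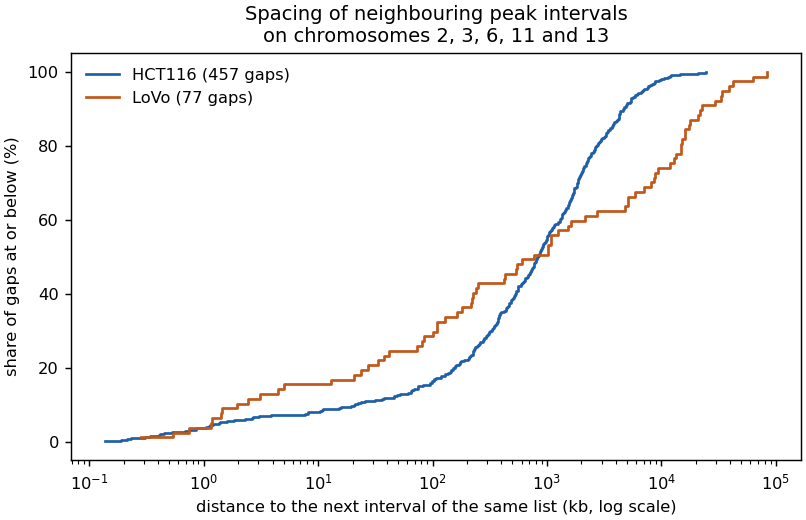
Cumulative share of the distances between neighbouring intervals of the same list (kb, log scale). The medians nearly coincide, at 831 kb in HCT116 and 767 kb in LoVo, while the LoVo line is higher at short distances and lower at long ones.

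Intervals at most 100 kb apart were joined into runs. HCT116 had 40 runs with 115 intervals, 9 of them with 3 or more, and LoVo had 11 runs with 33 intervals. The run with the most intervals was in both lists at the same 20.7 kb of chromosome 2, from 90380619 to 90401292, with 15 HCT116 intervals and 8 LoVo intervals. It overlaps no annotated gene. The second run of HCT116 was 28.2 kb of IGK, from 89813061 to 89841306, with 10 HCT116 intervals and 2 of LoVo. These 2 runs together held 25 HCT116 intervals, with a median of 21 tags, a background of 3.0 and a fold of 5.67, and 21 of the 25 reached q 0.05. Of the other 437 HCT116 intervals, 46 did (10.5%). The 10 LoVo intervals in the runs had a median of 36.5 tags over a background of 8.50 and a fold of 2.69, and 5 reached q 0.05.

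Another run of HCT116 lay at the end of the short arm of chromosome 6, from 314948 to 372256, in and beyond DUSP22, a phosphatase that acts on JNK signalling. Its 7 intervals had 7, 7, 8, 8, 6, 6 and 9 tags in order along the chromosome, all over a background between 1.25 and 1.26. None reached q 0.05, and the highest −log10 q was 1.27. LoVo had no interval there, and its nearest was over 24 Mb away. A further run, from 75679931 to 75776311 on chromosome 3, lay in ZNF717, a KRAB zinc finger gene, and just before it, beside the omitted summits. Its 6 intervals had a median fold of 3.10, 1 of them reached q 0.05, and LoVo had none there. In LoVo, the second run was 5 intervals on chromosome 6, from 59383301 to 59566470, of which 4 reached q 0.05 and which HCT116 lacked. The third was 4 intervals beside the stretch of chromosome 3, from 90797871 to 90888749, a place where HCT116 had 2.

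Between the cell lines, 13 of the 462 HCT116 intervals (2.81%, exact binomial interval 1.51 to 4.76%) overlapped a LoVo interval by at least 1 bp, against 13.9% of the whole HCT116 list and 9.45% of its assembled part. From the side of LoVo, 14 of 82 did (17.1%, 9.66 to 27.0%), against 45.1% of its whole list and 35.7% of its assembled part. The overlaps made 14 pairs. Of these, 8 lay in the dense run of chromosome 2, 2 in IGK, 2 in MUC6 at the start of chromosome 11, and 1 each in the stretches of chromosomes 3 and 6. The middles of the arms, with 318 and 31 intervals, held none among the intervals kept. The intervals left out on chromosome 3 lie in a middle and did overlap, at 75668863 to 75669632 in HCT116 and 75668995 to 75669559 in LoVo. Their −log10 q values were 161 and 29.1. With them kept, 14 HCT116 and 15 LoVo intervals were shared.

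In MUC6, which encodes a gel-forming mucin of the stomach, the HCT116 interval at 1016616 to 1017010 had 10 tags over a background of 2.0 and the LoVo interval at 1016631 to 1017052 had 19 tags over 2.53, with summits 9 bp apart and folds of 3.34 and 3.80. The HCT116 interval at 1017240 to 1017955 had 19 tags over 1.26, a fold of 8.06 and a −log10 q of 10.1, and the LoVo interval at 1017586 to 1018004 had 14 tags, a fold of 3.13 and a −log10 q of 0. Among protein-coding genes, the intervals kept overlapped between the lists in MUC6 only. In IGK, the HCT116 interval at 89830784 to 89831274 had a fold of 11.8 and its LoVo counterpart 2.73, and that at 89836176 to 89836732 had 8.86 against 2.95.

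In the dense run of chromosome 2, the pair at 90397387 to 90398852 shared 1440 bp, with 39 tags over a background of 3.0 in HCT116 and 70 tags over 16 in LoVo, which gave folds of 9.06 and 2.75. The pair at 90395210 to 90396187 had 35 and 48 tags and folds of 6.52 and 3.65, and the highest LoVo −log10 q of all pairs, 5.34. On chromosome 3, the HCT116 interval at 91734861 to 91735542 had 18 tags and a fold of 7.65, and the LoVo interval 11 tags and 3.77. On chromosome 6, the pair at 60241512 to 60241771 had 24 tags in each list, over backgrounds of 10 and 5.0, and summits 2 bp apart.

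Over the 14 pairs, the median summit distance was 78 bp, with a largest of 444 bp, and 8 pairs were within 100 bp. The fold was higher in HCT116 in 12 pairs, with medians of 6.55 and 2.77. The local background was higher in LoVo in 12 pairs, with medians of 2.80 in HCT116 and 7.45 in LoVo, while the pileup, which is scaled to inputs of different size, was higher in LoVo in 7 of 14, with medians of 22.1 and 21.9. Before scaling, the ChIP tags were more in LoVo in 10 pairs, equal in 1 and more in HCT116 in 3. The pairs share 4 libraries and 10 of them lie on 1 part of chromosome 2, so they are not independent. In 5 of the 14 pairs, all in the dense run, both sides reached q 0.05. The pair left out on chromosome 3 did so too and is not among the 14.

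**Figure D5:**
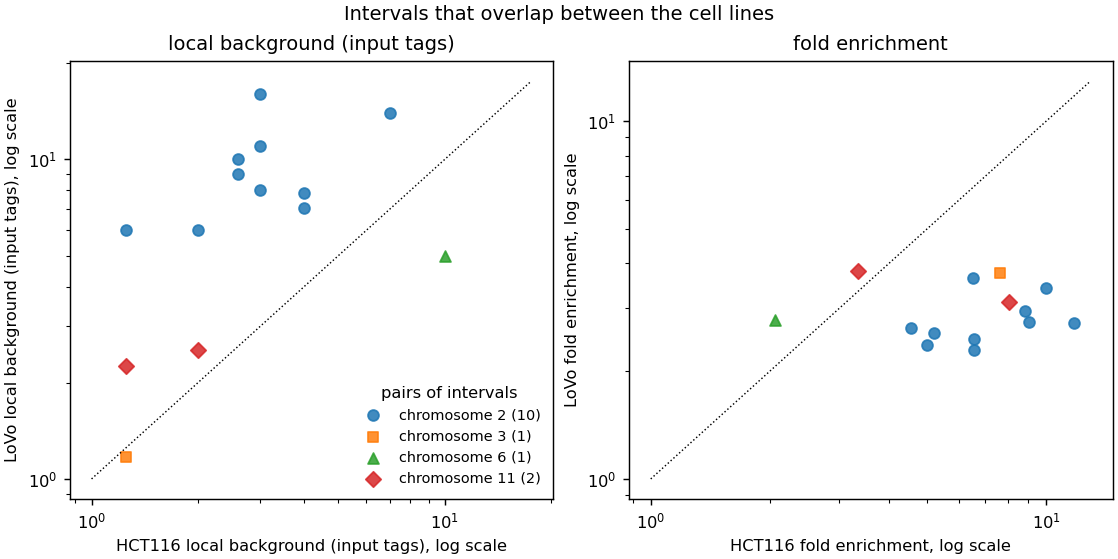
Local background (left) and fold enrichment (right) of the 14 pairs of overlapping intervals, LoVo against HCT116 on log scales, with the dotted line at equal values. In 12 pairs the background is higher in LoVo, and in 12 the fold is higher in HCT116.

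Compared with the intervals of 1 list, those in both had more tags. The 13 HCT116 intervals had a median of 24 tags and a background of 3.0, and the other 449 had 8 tags and 1.26. In LoVo the 14 had a median of 33.5 tags and a background of 7.45, and the other 68 had 11 tags and 1.36. The fold was higher in the shared intervals in HCT116, at 6.55 against 3.25, but not in LoVo, at 2.77 against 3.31. Of the 68 LoVo intervals with no overlap, 5 lay within 10 kb of a HCT116 interval and 30 within 100 kb, with a median distance of 135 kb.

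The intervals overlapped the bodies of 269 of the 15670 annotated genes in HCT116 (1.72%, against 2.26% of the genes of all chromosomes) and of 32 in LoVo (0.204%, against 0.436%). Among the 5008 protein-coding genes, 174 had an interval in HCT116 (3.47%, against 4.46%) and 24 in LoVo (0.479%, against 0.769%). A further 79 genes of HCT116 and 4 of LoVo were lncRNA genes. A gene held 269 of 462 intervals in HCT116 (58.2%, 53.6 to 62.8%) and 33 of 82 in LoVo (40.2%, 29.6 to 51.7%), where genes cover 56.8% of the sequence. Over all assembled chromosomes the shares were 46.7% in HCT116 and 31.8% in LoVo, where genes cover 54.3%. The genes with an interval were long. The median protein-coding gene had 27.4 kb, those with a HCT116 interval 87.0 kb and those with a LoVo interval 98.1 kb. Of the 436 genes over 200 kb, 13.1% had a HCT116 interval, and of the shorter ones 2.56%. A longer gene offers more sequence to overlap, and the part of length was not separated from other properties.

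Genes with an interval in both lists were MUC6, IGK, KCNH7, DENND2B with its antisense gene DENND2B-AS1, and ABCC5. Except in MUC6 and IGK, the intervals of the lists did not overlap. KCNH7, a voltage-gated potassium channel, had 1 interval of 9 tags in HCT116 and 1 of 10 tags in LoVo, 188 kb apart. In DENND2B, an exchange factor for Rab GTPases, the intervals had 8 and 9 tags and were 3.1 kb apart. They also lie in DENND2B-AS1, on the other strand. In ABCC5, an exporter of cyclic nucleotides, they had 6 and 10 tags and were 38.1 kb apart. None of these 6 intervals reached q 0.05.

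Several intervals in 1 gene were found in 7 genes of HCT116 with 3 or more. IGK had 10, with 8 to 64 tags, and ZNF717 had 5, with 6 to 11 tags. KCNQ1, the potassium channel of the cardiac slow delayed rectifier, had 3 over 253 kb, TENM4, a teneurin of neural cell contacts, 3 over 365 kb, and KCNH8, a further potassium channel, 3 over 184 kb. DUSP22 had 3, and LOC107985915 had 3 within 4.62 kb. In KCNQ1, TENM4, KCNH8, DUSP22 and LOC107985915 no interval had over 9 tags, and the highest −log10 q was 0.828. In LoVo, IGK had 3 intervals and no other gene had as many.

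The highest score in a protein-coding gene of HCT116 fell where the annotation places 2 genes. The interval at 109199343 to 109199757 on chromosome 2 had 43 tags over a background of 6.0, a fold of 5.69 and a −log10 q of 13.97, and lies in SH3RF3, a ubiquitin ligase of the POSH family. The annotation also places it in RANBP2, a nucleoporin with SUMO ligase activity, whose body is given as 1123 kb. The highest interval of TMEM242, a mitochondrial membrane protein, had 40 tags over 7.0, a fold of 4.64 and a −log10 q of 10.4, and a second one lay within 3.92 kb of sequence with it. The interval in MUC6 followed, with its background at the genome mean. LRFN2, a synaptic adhesion protein, had 12 tags, a fold of 5.25 and a −log10 q of 2.93. ZNF717, CIMIP5, EVA1A, IL1R2 and KLHL35 came next with a −log10 q of 2.04, ZNF717 with 11 tags and the other 4 with 10 tags each. A further 6 protein-coding genes had the same −log10 q, and the cut among these ties fell by fold and then by alphabet. EVA1A takes part in autophagy and IL1R2 is the decoy receptor of interleukin 1.

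In LoVo, CPN2, a subunit of carboxypeptidase N, was first among the protein-coding genes, with 14 tags over a background of 1.41, a fold of 4.22 and a −log10 q of 1.31. MUC6 followed with 1.26. DLEC1 had 14 tags and a −log10 q of 0.717, ALDH5A1, an enzyme of GABA breakdown, and TNS1, a tensin of focal adhesions, 11 tags and 0.323 each, ART1, an ADP-ribosyltransferase, 15 tags and 0.223, and LPA, the apolipoprotein(a) gene with its kringle repeats, 21 tags over a background of 4.0 and 0.058. GPD1L and NCKAP5 had 12 and 10 tags and a −log10 q of 0. CPN2 was the one protein-coding gene of LoVo at q 0.05 here, where the limit is a −log10 q of 1.30.

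Gene families were listed by the start of their symbols. For the signalling families, 3 of 31 MAPK-family genes had a HCT116 interval, namely MAP3K20 (the stress kinase ZAK, 10 tags), DUSP22 and DUSP8, and 1 of 31 a LoVo interval, MAP3K13 (8 tags). Of 17 TGF-beta-family genes, the receptors ACVR2B (8 tags) and BMPR2 (7 tags) had one in HCT116. Of 12 SUMO-pathway genes, the SUMO protease SENP7 had one (10 tags over a background of 3.0). All of these intervals were above a q of 0.05, and their highest −log10 q was 1.04, in MAP3K20. LoVo had 0 in the TGF-beta and SUMO lists. The background for these counts is 2.26% of all genes and 4.46% of protein-coding genes in HCT116, and 0.436% and 0.769% in LoVo, and at 1 to 3 genes per family the counts say no more than which genes were met.

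Of the 464 olfactory receptor genes 0 had an interval in either list, which allows up to 0.647%. This limit is below the 1.72% of all genes on these 5 chromosomes in HCT116 but above the 0.204% in LoVo. It is likewise below the 2.26% of all genes over all chromosomes in HCT116 and above the 0.436% in LoVo. Over all chromosomes, 2 of 875 had one in HCT116 and 1 in LoVo. Of the 73 clustered histone genes, which encode the core and linker histones, 0 had an interval, which allows up to 4.11%. In HCT116 this limit is above the 1.72% of all genes and the 3.47% of protein-coding genes with an interval on these 5 chromosomes. Over all chromosomes, where intervals are denser, it is above the 2.26% of all genes but slightly below the 4.46% of protein-coding genes. The LoVo shares, 0.204% and 0.479% on the 5 chromosomes and 0.436% and 0.769% over all, are below the limit. Over all chromosomes 1 of 95 had one in HCT116 and 0 in LoVo. Genes of both families are known to be short, and length was not taken into account. Cadherins and protocadherins (12 genes), integrins (11), receptor-type phosphatases (7) and S100 proteins and annexins (2) also had 0 in both lists, with too few genes for a useful limit. Over all chromosomes, HCT116 intervals lay in 20 of 125 cadherins and protocadherins (16%), 5 of 33 receptor-type phosphatases (15.2%), 3 of 39 integrins (7.69%) and 0 of 49 S100 proteins and annexins, beside 4.46% of all protein-coding genes. LoVo intervals lay in 2 of the 33 receptor-type phosphatases (6.06%) and in 0 of the other 3 families, beside 0.769%. Gene length was not taken into account in these shares either. Of protein-coding genes over 200 kb on all chromosomes, 17.2% had a HCT116 interval and 2.29% a LoVo interval. The families were also not limited to protein-coding genes, and 1 interval counts for each gene body that it overlaps. Of 45 HLA genes, HLA-DRB7 had a HCT116 interval of 6 tags. The annotation table lists that pseudogene at 3770665 to 3789002 on chromosome 6, among 5 HLA genes apart from the other 40, which lie between 29.7 and 33.1 Mb. Whether that position is one of the assembled chromosome was not checked, so the count is not read as an overlap with an HLA gene. The miRNA genes MIR6823 and MIR1224, both on chromosome 3, were overlapped by HCT116 intervals of 7 and 8 tags.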

How the data were processed

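S100A10 ChIP-seq and input DNA were sequenced in 1 library each per cell line. According to the deposited headers, the authors called peaks with MACS2 (2.1.0) on uniquely mapped reads without duplicates, with a p-value cutoff of 0.005, no model, tags extended to 260 bp (HCT116) or 281 bp (LoVo), and summits within peaks. The aligner and genome build are not given in the sources used here. The deposited signal is the ChIP pileup at the summit, scaled by the authors to the smaller library (by 0.903 and 0.654). The deposited ratio is the fold enrichment, (pileup + 1)/(local background + 1). The authors' −log10 p and −log10 q stand in 2 columns with damaged names, read by their order in MACS output, and the header says that q is not calculated, although the column holds values.

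From these, the local background and the tags at a summit (pileup divided by the scale, whole within 0.02 in 100% of summits) were computed. The 59679 gene bodies and the promoter windows came from RefSeq (GRCh38.p14), as the unplaced sequences have names of that build. A few genes appear to be listed there at positions of alternate sequences, possibly those before the stretch of chromosome 13, which was not checked. Overlap meant at least 1 bp. Genes were named when they had intervals in both lists, 3 or more intervals, a promoter overlap, membership of a family list, or were among the 10 highest protein-coding genes per list by −log10 q, together with the 5 highest summits, and 1 gene and 1 family list that the rule gives are not reported here. Members, lists and rules were chosen with earlier results of these data known. Values without chromosome 6, chromosome 13 or the 2 runs of chromosome 2 were added after seeing the data. Intervals are 95% exact Poisson or binomial, limits for a count of 0 use 3 counts, and both cover counting error only. Counting steps were tested on simulated data. Python 3.11.15, pandas 2.3.3 and scipy 1.17.1 were used.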

Additional observations from a re-analysis of the deposited data

How the results depend on the processing

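No paired analysis was possible because each group holds 1 library. The smallest peak had 6 tags in HCT116 and 8 in LoVo, and the counts depended on the score limit. At a −log10 q of at least 2, 57 HCT116 and 17 LoVo intervals were left, 23 and 0 genes, and 4 shared intervals in each list. At a fold of at least 5 there were 20 and 9 intervals, 5 and 0 genes, and 0 shared intervals in both lists. With protein-coding genes only, HCT116 had 174 genes. With windows of 10 Mb, the ends held 0.889 intervals per Mb in HCT116, and the stretch with its sides 0.370 in LoVo, which was 0.810 with windows of 2 Mb. In alternatives chosen after seeing the data, leaving out the 2 runs of chromosome 2 gave 0.771 per Mb for the stretch and sides in HCT116, and 4 shared intervals in each list. Leaving out chromosome 13 gave 1.52 in HCT116 and 0.807 in LoVo. All of these densities remained above those of the middles at 5 Mb, and the other 39 values stayed within 1.5 times or the counting interval of the reported one.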
